A study of Homo sapiens with 7 samples.

Results

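The genes described here are E2F1 to E2F8, which encode the E2F transcription factors, and RBL1 and RBL2, which encode the pocket proteins p107 and p130. These 8 E2F genes and 2 pocket protein genes were chosen by name, with earlier results of these data known. They make up 10 of the 60675 gene identifiers in the deposited count table. All 10 passed the filter on low counts that left 16583 genes for testing. The RNA came from MDA-MB-231 cells, an established human triple-negative breast cancer (TNBC) line, and was sequenced as 1 library per sample. One group of 3 libraries came from cells given a control siRNA (siCTL, genotype label DEPDC1 WT). The other group of 4 libraries came from cells given an siRNA against DEPDC1, a DEP domain gene (siDEPDC1, label DEPDC1 KD). Both groups received the same lipid transfection reagent, had their medium changed after 8 h and were harvested on day 2. The knockdown is transient and partial, and the sources used here do not say whether the siRNA was a single duplex or a pool. No label says that libraries of a group were grown apart as separate cultures. The p-values therefore measure the spread between libraries only, and that spread may be technical.

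E2F proteins bind promoters of genes for DNA replication and the cell cycle, most of them as dimers with a DP protein. E2F1, E2F2 and E2F3 are known as activators that drive entry into S phase. They are held in check mainly by a pocket protein other than p107 and p130, until cyclin-dependent kinases phosphorylate it. E2F4 and E2F5 bind mainly RBL1 and RBL2 and repress target genes in resting and early G1 cells, partly within the DREAM complex with the MuvB proteins. E2F6 represses without pocket proteins, as part of a Polycomb complex, and the atypical factors E2F7 and E2F8 repress without a DP partner, with E2F1 among their known targets. Several E2F genes are therefore themselves E2F targets. In breast cancer cells the pathway is known for uncoupling proliferation from growth signals.

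Library totals ran from 7690583 to 15360409 counts, and the members had between 125 and 2877 counts in a library. Levels are given as CPM, counts brought to a common library size with TMM factors, which adjust for composition. DEPDC1 itself was at 118 ± 3.20 CPM (SD, n = 3) in siCTL and 13.3 ± 1.43 CPM (SD, n = 4) in siDEPDC1, which left 11.3%. The 5 genes taken as markers of this line (VIM, CD44, AXL, EGFR and MSN) summed to 6729 to 7232 CPM in every library, although EGFR alone was lower in siDEPDC1 (562 ± 29.4 to 462 ± 28.2 CPM, edgeR adjusted p = 0.000183). Of 5 luminal markers, the hormone receptor genes ESR1 and PGR stayed at or below 0.651 CPM, FOXA1 and GATA3 at or below 7.84 CPM, and ERBB2 was at 64.5 ± 0.869 CPM in siCTL and 66.0 ± 4.14 CPM in siDEPDC1. The 10 markers of leukocytes, endothelium, fibroblasts and hepatocytes summed to 34.6 to 39.5 CPM in siCTL and 51.1 to 57.5 CPM in siDEPDC1. COL1A1, a fibroblast collagen gene in that list, went from 12.9 ± 1.35 to 30.2 ± 2.52 CPM, the largest change in CPM of the 10. CD14 was also called higher, from 2.06 ± 0.498 to 3.25 ± 0.634 CPM (edgeR adjusted p = 0.0282), although the groups overlapped. With DESeq2 CD14 was not called (adjusted p = 0.0865). LYZ and PECAM1 were not called, and the others did not pass the count filter. The part of the difference between these sums in the results below was not tested.

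Promoter sequences show which of these genes carry the letters of a classical E2F site close to their start. Windows from 250 bases before to 50 bases after the RefSeq start site (build GRCh38.p14) held 8 of the 10 genes, with E2F5 and E2F8 missing from the table. They were searched on both strands for TTTCCCGC, TTTCGCGC, TTTGCCGC and TTTGGCGC, which do not overlap one another in the windows printed. Of 35116 windows of this length, 3.31% held at least 1 of these words and 0.145% held them at 2 or more places. E2F1, E2F2, E2F3 and RBL1 held at least 1, whereas E2F4, E2F6, E2F7 and RBL2 held none. Those 4 promoters with a word, and that of E2F7 for comparison, are printed 5′ to 3′ on the strand of the gene, with the words in capitals:
E2F1: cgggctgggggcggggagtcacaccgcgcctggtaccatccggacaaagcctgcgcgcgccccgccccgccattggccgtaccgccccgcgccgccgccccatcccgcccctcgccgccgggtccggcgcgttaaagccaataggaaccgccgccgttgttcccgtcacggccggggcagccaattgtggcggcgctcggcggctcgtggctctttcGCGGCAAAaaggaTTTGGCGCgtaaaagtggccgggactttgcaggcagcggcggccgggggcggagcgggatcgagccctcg
E2F2: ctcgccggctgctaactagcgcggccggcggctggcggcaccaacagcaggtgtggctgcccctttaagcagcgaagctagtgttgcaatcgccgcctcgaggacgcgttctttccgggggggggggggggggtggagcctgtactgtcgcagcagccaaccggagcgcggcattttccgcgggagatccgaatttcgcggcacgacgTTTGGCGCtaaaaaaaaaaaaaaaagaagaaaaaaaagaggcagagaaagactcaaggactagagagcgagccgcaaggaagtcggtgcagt
E2F3: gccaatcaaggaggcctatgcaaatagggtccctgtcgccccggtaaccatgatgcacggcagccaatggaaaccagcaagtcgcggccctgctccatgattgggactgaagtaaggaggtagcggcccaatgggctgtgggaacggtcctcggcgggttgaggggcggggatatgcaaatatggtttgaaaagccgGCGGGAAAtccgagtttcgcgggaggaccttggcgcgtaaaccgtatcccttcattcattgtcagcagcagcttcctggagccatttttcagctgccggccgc
RBL1: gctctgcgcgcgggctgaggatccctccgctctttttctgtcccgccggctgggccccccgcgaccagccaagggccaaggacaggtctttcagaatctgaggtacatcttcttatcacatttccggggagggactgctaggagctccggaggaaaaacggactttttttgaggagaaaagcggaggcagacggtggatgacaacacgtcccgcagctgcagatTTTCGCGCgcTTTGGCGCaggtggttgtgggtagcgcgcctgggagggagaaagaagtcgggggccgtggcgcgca
E2F7: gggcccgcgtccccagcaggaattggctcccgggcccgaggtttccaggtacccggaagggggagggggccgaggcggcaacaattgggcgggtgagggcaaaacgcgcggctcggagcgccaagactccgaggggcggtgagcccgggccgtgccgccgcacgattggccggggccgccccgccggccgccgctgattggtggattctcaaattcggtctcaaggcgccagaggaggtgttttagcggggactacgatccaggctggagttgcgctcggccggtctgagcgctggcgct
The windows are chr20:33686336-33686635 (minus strand) for E2F1, chr1:23531184-23531483 (minus) for E2F2, chr6:20401629-20401928 (plus) for E2F3, chr20:37095948-37096247 (minus) for RBL1 and chr12:77065520-77065819 (minus) for E2F7. E2F1 had TTTGCCGC on the opposite strand from -33 to -26 and TTTGGCGC from -20 to -13, counted from the start site as 0. RBL1 had TTTCGCGC from -26 to -19 and TTTGGCGC from -16 to -9. E2F2 had TTTGGCGC from -42 to -35, and E2F3 had TTTCCCGC on the opposite strand from -53 to -46. A second annotated E2F3 start held none. A match describes the letters only and does not show binding.

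Of the 10 genes, 5 were higher and 2 lower after DEPDC1 siRNA (Benjamini-Hochberg adjusted p under 0.05 over all genes tested, by the quasi-likelihood test of edgeR). The activators E2F1, E2F2 and E2F3, the atypical repressor E2F8 and the pocket protein gene RBL2 rose, and the repressor genes E2F5 and E2F7 fell. E2F4, E2F6 and RBL1 did not pass the test. Among all tested genes 34.4% were called, 16.5% as higher and 17.9% as lower. Genes are called more often at higher counts, and among the 7802 tested genes whose mean lay within the members' range of 15.8 to 170.3 CPM, 42.6% were called, 19.4% as higher and 23.2% as lower. In 7 of the 10 genes the libraries of the groups did not overlap, against 37.3% of all tested genes and 45.1% of those at the same level. The changes were small, with log2 fold changes from -0.31 to 0.50, beside a median absolute value of 0.37 among all called genes.

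**Figure D1:**
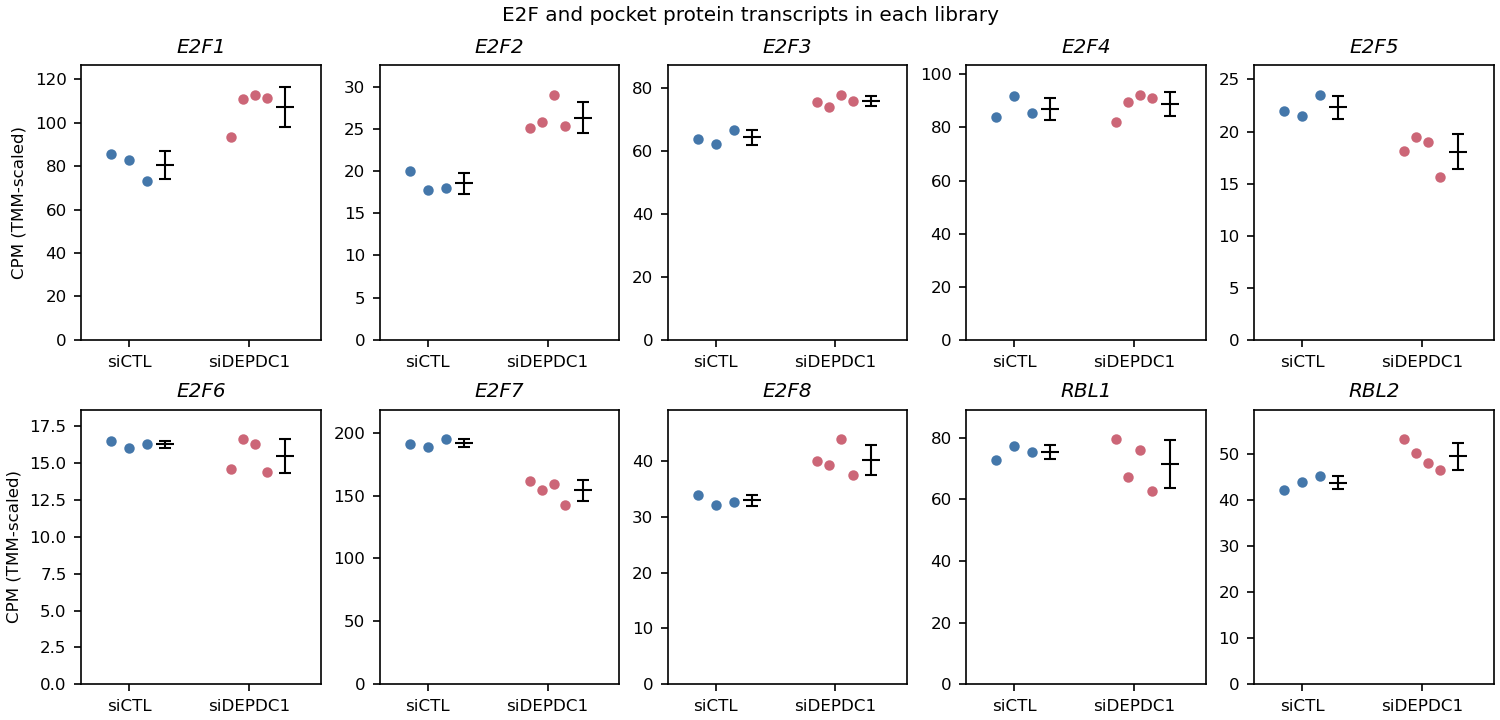
TMM-scaled CPM (linear axes from 0) of each gene in the 3 siCTL libraries (blue) and 4 siDEPDC1 libraries (red), with mean ± SD in black. The groups are apart in E2F1, E2F2, E2F3, E2F5, E2F7, E2F8 and RBL2, and overlap in E2F4, E2F6 and RBL1.

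E2F2 (ENSG00000007968; GRCh38 chromosome 1, 23506430 to 23531220, minus strand) had the largest change of the 10. This activator was at 20.0, 17.7 and 18.0 CPM in the siCTL libraries and at 25.04, 25.8, 29.04 and 25.4 CPM in the siDEPDC1 libraries. Every siDEPDC1 library lay above every siCTL library. The log2 fold change was 0.50 ± 0.084 (SE; edgeR adjusted p = 1.52e-05), a rise of 1.41-fold that ranked above 93.4% of tested genes. Under 15 alternative settings it stayed called, with log2 fold changes from 0.46 to 0.55.

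E2F1 (ENSG00000101412; chromosome 20, 33675683 to 33686404, minus strand), the activator with paired E2F words in its promoter, was at 85.7, 82.8 and 73.1 CPM in siCTL. In siDEPDC1 it was at 93.3, 111, 113 and 111 CPM. The groups did not overlap, but siDEPDC1 replicate 1 lay closer to the highest siCTL library than to any other siDEPDC1 library. The siCTL mean of 80.5 ± 6.60 (SD, n = 3) and siDEPDC1 mean of 107 ± 9.26 CPM (SD, n = 4) gave a log2 fold change of 0.41 ± 0.068 (SE; edgeR adjusted p = 1.06e-05). The call held under all 15 alternatives, at 0.35 without siCTL replicate 3 and 0.47 without siDEPDC1 replicate 1.

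E2F3 (ENSG00000112242; chromosome 6, 20401906 to 20493715, plus strand) completes the activators. Its levels were 63.9, 62.5 and 66.9 CPM in siCTL and 75.8, 74.2, 78.0 and 76.0 CPM in siDEPDC1. The siDEPDC1 values were close together and all above the siCTL values. The rise was 0.24 ± 0.061 (SE) on the log2 scale (edgeR adjusted p = 0.00222), and it was called under all 15 alternatives. Counts per gene do not separate the transcripts that begin at the alternative E2F3 starts.

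Among the repressors that bind pocket proteins, E2F4 and E2F5 differed in their result. E2F4 (ENSG00000205250; chromosome 16, 67192169 to 67198918, plus strand) was at 84.1, 91.8 and 85.3 CPM in siCTL and at 82.2, 89.6, 92.3 and 91.1 CPM in siDEPDC1. These ranges overlapped almost fully. The log2 fold change was 0.026 with a 95% confidence interval from -0.097 to 0.15 (edgeR adjusted p = 0.776), an interval that leaves room for a small change either way. E2F5 (ENSG00000133740; chromosome 8, 85177225 to 85217158, plus strand) fell from 22.0, 21.5 and 23.5 CPM in siCTL to 18.1, 19.5, 19.0 and 15.7 CPM in siDEPDC1. Every siDEPDC1 library was below every siCTL library, with siDEPDC1 replicate 4 the lowest. The log2 fold change was -0.30 ± 0.088 (SE; edgeR adjusted p = 0.00752), and -0.23 without siDEPDC1 replicate 4 (edgeR adjusted p = 0.0392). E2F5 shares 969 exon bases with a gene on the opposite strand, C8orf59, which had a log2 fold change of 0.21 (edgeR adjusted p = 0.073). The sources used here do not give the strand setting of the counting, and without strand the reads of the shared part cannot be told apart.

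E2F6 (ENSG00000169016; chromosome 2, 11444375 to 11466177, minus strand), the Polycomb-linked repressor, was at 16.5, 16.0 and 16.3 CPM in siCTL. It was at 14.6, 16.7, 16.3 and 14.4 CPM in siDEPDC1, where replicates 1 and 4 were below and replicate 2 above all siCTL libraries. At -0.071 on the log2 scale it was not called (95% confidence interval -0.26 to 0.12, edgeR adjusted p = 0.59).

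The atypical repressors E2F7 and E2F8 moved in opposite directions. E2F7 (ENSG00000165891; chromosome 12, 77021247 to 77065580, minus strand) was at 191, 189 and 195 CPM in siCTL and at 162, 154, 159 and 143 CPM in siDEPDC1. All siDEPDC1 values lay below the tight siCTL range. It fell by 0.31 ± 0.056 (SE) on the log2 scale (edgeR adjusted p = 3.42e-05), and remained called under the 15 alternatives, from -0.33 to -0.27. E2F8 (ENSG00000129173; chromosome 11, 19224063 to 19241620, minus strand) was at 34.0, 32.2 and 32.8 CPM in siCTL and at 40.01, 39.4, 44.0 and 37.6 CPM in siDEPDC1. Its siDEPDC1 libraries all lay above the siCTL libraries. The log2 fold change was 0.28 ± 0.073 (SE; edgeR adjusted p = 0.00282), called under all 15 alternatives. E2F8 shares only 7 exon bases with an antisense gene.

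The pocket protein genes gave a weak rise of RBL2 and no call for RBL1. RBL2 (ENSG00000103479; chromosome 16, 53433977 to 53491649, plus strand), the p130 gene, was at 42.3, 43.9 and 45.2 CPM in siCTL and at 53.3, 50.2, 48.1 and 46.5 CPM in siDEPDC1. The groups were apart, but by less than the spread within siDEPDC1. Its log2 fold change was 0.18 ± 0.069 (SE; edgeR adjusted p = 0.0422). This call was kept in 7 of 15 alternatives and was lost without siCTL replicate 1 (edgeR adjusted p = 0.161), without siCTL replicate 2 (0.103) and without siDEPDC1 replicate 1, 2 or 3 (0.0983, 0.0884 and 0.0515). It was also lost with DESeq2, without a count filter and after thinning to equal depth (adjusted p = 0.0699, 0.128 and 0.0741). RBL2 shares exon bases with 2 genes on the opposite strand, 721 with AC007342.6 (0.15 on the log2 scale, edgeR adjusted p = 0.416) and 610 with AKTIP (0.023, 0.875).

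RBL1 (ENSG00000080839; chromosome 20, 36996349 to 37095995, minus strand), the p107 gene and the other promoter with paired E2F words, was at 72.9, 77.4 and 75.5 CPM in siCTL. In siDEPDC1 it was at 79.6, 67.3, 76.1 and 62.6 CPM, a range that covers the siCTL values. The log2 fold change was -0.081 (95% confidence interval -0.22 to 0.059, edgeR adjusted p = 0.385), and it was called under none of the 15 alternatives. It shares 211 exon bases with the antisense gene AL136172.1, which was at 2.04 ± 0.261 CPM in siCTL. Of the 4 genes with an E2F word in the promoter, E2F1, E2F2 and E2F3 were higher and RBL1 was not called. Of the 4 without one, E2F7 was lower, RBL2 higher and E2F4 and E2F6 not called. Among all 725 tested genes with such a word, 17% were higher and 19.2% lower. These shares are close to 17.7% and 20.1% of the 11253 tested genes with a promoter in the table. With 2 or more words in 1 promoter, 22.9% of 35 tested genes were higher and 5.71% lower.

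**Figure D2:**
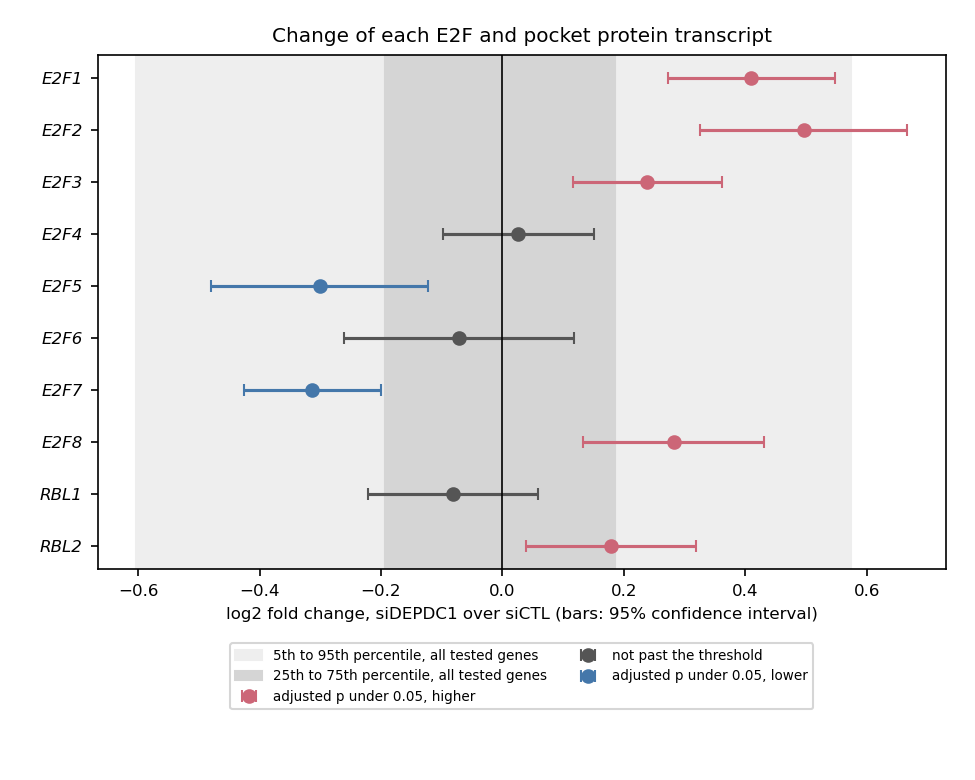
Log2 fold change (siDEPDC1 over siCTL) of each gene with its 95% confidence interval, coloured by call; shading gives the middle ranges of all 16583 tested genes. Every point lies within the 5th to 95th percentile of all tested genes, -0.60 to 0.57, and the intervals of E2F4, E2F6 and RBL1 cross 0.

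Levels of different genes can be set side by side only per transcript length, taken here as CPM per kilobase of the union of annotated exons (GENCODE release 29). In siCTL, E2F1 was at 32.2 ± 2.64 (SD, n = 3), E2F7 at 30.4 ± 0.500 and E2F4 at 24.3 ± 1.15 CPM per kilobase. E2F1 and E2F7 overlapped in siCTL, and both were above E2F4 in every siCTL library. RBL1 at 12.6 ± 0.382 and E2F3 at 12.5 ± 0.437 CPM per kilobase followed and overlapped each other. E2F8 was at 7.97 ± 0.231 and RBL2 at 5.98 ± 0.198 CPM per kilobase. The lowest were E2F6 at 4.00 ± 0.0606, E2F5 at 3.77 ± 0.184 and E2F2 at 3.40 ± 0.224, and each of these overlapped its neighbour in the order.

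In siDEPDC1 the order changed at both ends. E2F1, at 42.8 ± 3.70 CPM per kilobase (SD, n = 4), was above every other member in all libraries, while E2F7, at 24.5 ± 1.33, overlapped E2F4 at 24.8 ± 1.27. E2F2 moved from the lowest place to the eighth, at 4.82 ± 0.338, above E2F6 and E2F5 in every siDEPDC1 library. With the longest transcript as the length, the siCTL order of the first 3 was E2F7, E2F4 and E2F1, so the order at the top depends on the length used.

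**Figure D3:**
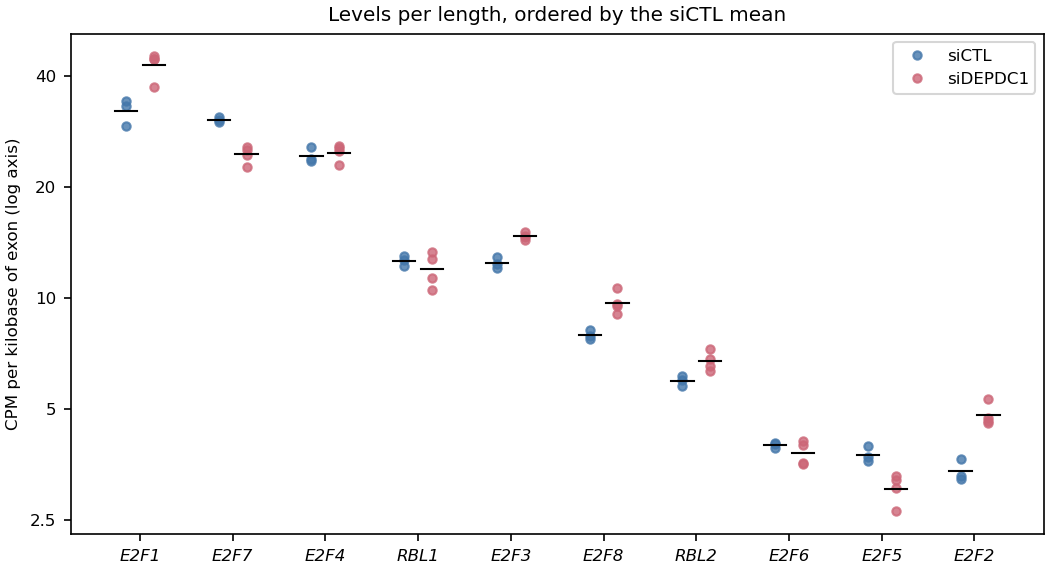
CPM per kilobase of annotated exon (log axis) of each gene in every library, ordered by the siCTL mean, with black bars at group means. E2F1 and E2F7 are level in siCTL and apart in siDEPDC1, and E2F2 passes E2F6 and E2F5.

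Summed per length over the 8 E2F genes, E2F1 to E2F3 made up 40.5 ± 1.37% (SD, n = 3) of E2F transcript in siCTL and 48.6 ± 1.51% (SD, n = 4) in siDEPDC1. E2F7 and E2F8 together made up 32.4 ± 0.959% in siCTL and 26.7 ± 1.74% in siDEPDC1, although E2F8 itself rose. E2F4 to E2F6 made up 27.1 ± 0.927% and 24.7 ± 0.276%. These shares follow from the values already given and were not tested. They use the exon union and depend on the length used. With the longest transcript, E2F4 was at 33.3 in place of 24.3 CPM per kilobase in siCTL.

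Ratios of gene pairs within a library do not depend on scaling between libraries. The log2 ratio of E2F7 to E2F1 counts was 1.16, 1.19 and 1.42 in siCTL and 0.79, 0.47, 0.49 and 0.36 in siDEPDC1. The groups were apart, with a difference in means of -0.73. The log2 ratio of E2F1 to E2F4 was 0.026, -0.15 and -0.22 in siCTL and 0.18, 0.31, 0.29 and 0.29 in siDEPDC1, also without overlap. The RBL1 to RBL2 ratio was 0.78, 0.82 and 0.74 in siCTL and 0.58, 0.42, 0.66 and 0.43 in siDEPDC1, so RBL1 was lower relative to RBL2 in every siDEPDC1 library. The E2F8 to E2F1 ratio overlapped between groups, from -1.36 to -1.16 in siCTL and from -1.57 to -1.22 in siDEPDC1. No ratio was tested.

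**Figure D4:**
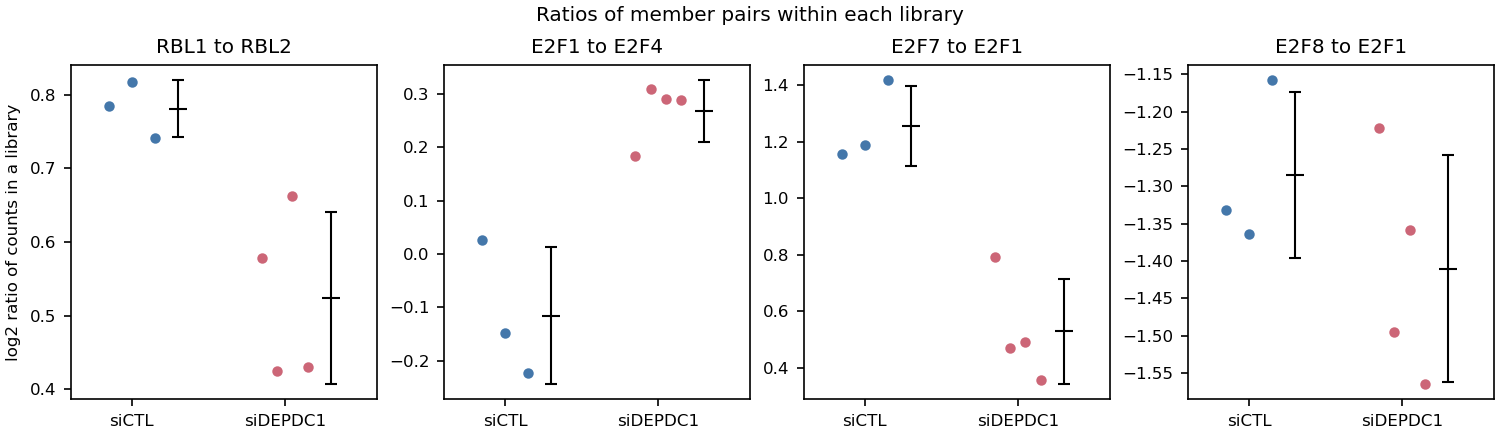
Log2 ratio of the counts of 2 genes in each library (axes differ and do not start at 0), with mean ± SD of each group in black. E2F7 relative to E2F1 and RBL1 relative to RBL2 are lower in all siDEPDC1 libraries, E2F1 relative to E2F4 is higher, and E2F8 relative to E2F1 overlaps.

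Genes whose log2 levels over the 7 libraries, centred on their own mean, came closest to a called member were found by the root mean square difference. This centring leaves the difference between the groups in the measure, so genes with a similar log2 fold change tend to come closest. For E2F1 these were DCTN3 (0.015 on the log2 scale) and RETREG2 (0.039), and for E2F2 they were TNRC6C (0.022) and NRGN (0.039). E2F7 was closest to DDX3X (0.015) and NRDC (0.017), and E2F5 to DEK (0.029) and BARD1 (0.031), a DNA repair gene also counted below. E2F3 was closest to NEDD4L (0.024) and ERLIN1 (0.026), E2F8 to ALG2 (0.037) and FAM83D (0.044), and RBL2 to ZBTB1 and PPHLN1 (0.024 and 0.025). ZBTB1 and PPHLN1 were not called themselves (edgeR adjusted p = 0.0635 and 0.0964). The measure describes these 7 libraries only and does not show shared regulation.

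An earlier analysis of these data found that genes with GATAACT in the 3′ UTR were often lower after this siRNA. In 1 annotated transcript per gene, the word was in the 3′ UTR of 6.73% of 18419 genes searched. None of the 10 members had it there or in the rest of that transcript, with 3′ UTRs from 592 bases in E2F8 to 3450 bases in E2F2. Among tested genes searched, 54.1% of the 950 carriers were lower, against 17.5% of the 11371 without it. E2F5 and E2F7, the members called lower, did not carry the word in the transcript searched. The word was chosen with earlier results of these data known, so the shares above only describe them. Its part in any change was not tested. Other isoforms were not searched.

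Both tested DP genes were called higher. TFDP1, which encodes the main partner of E2F proteins, went from 194 ± 2.44 to 215 ± 12.7 CPM (log2 fold change 0.15, edgeR adjusted p = 0.0402). Its edgeR adjusted p was 0.111, 0.143 and 0.0636 when replicate 1, 2 or 3 of siCTL was left out, and 0.0889 and 0.131 when replicate 2 or 3 of siDEPDC1 was. TFDP2 went from 49.5 ± 3.39 to 57.7 ± 3.26 CPM (log2 fold change 0.22, edgeR adjusted p = 0.0131), and this call went with replicate 1 or 2 of siCTL left out (0.0719 and 0.087). In TFDP2 the groups overlapped. TFDP3 did not pass the count filter.

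Upstream of the pocket proteins, 4 of 9 G1 cyclin and kinase genes were higher and 1 was lower, with a median log2 fold change of 0.15 beside 0.00094 over all tested genes. The counts of this list and those below stand beside 16.5% higher and 17.9% lower among all tested genes. Among tested genes within the members' range of mean CPM, 19.4% were higher and 23.2% lower. CCND1, a cyclin D gene, rose from 860 ± 29.5 to 1024 ± 21.1 CPM. CCND2, another cyclin D gene, rose 2.11-fold from only 3.08 ± 0.180 CPM, and CCND3 rose 1.18-fold. CDK2, the kinase of cyclin E, rose 1.24-fold. CCNE2, a cyclin E gene and E2F target that carries GATAACT, fell from 29.8 ± 1.503 to 21.7 ± 1.75 CPM, while its paralog CCNE1 was not called (-0.046 on the log2 scale).

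Inhibitors of these kinases were also higher in 4 of 5 tested genes and lower in none, with a median log2 fold change of 0.34. CDKN2D, which blocks CDK4 and CDK6, rose from 59.2 ± 3.05 to 104 ± 5.07 CPM (edgeR adjusted p = 1.05e-12). CDKN1A, the p21 gene, rose 1.47-fold, CDKN1B 1.17-fold and CDKN2C, a GATAACT carrier, 1.14-fold. CDKN1C was not called, at 0.34 on the log2 scale. CDK4 and CDK6, the cyclin D kinases, were not called themselves, at 0.15 and -0.10 on the log2 scale.

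In the MuvB group 4 of 7 genes were higher and none lower, with a median log2 fold change of 0.39. MYBL2, which encodes B-MYB and is a classical E2F target, rose from 122 to 165 CPM (1.35-fold), FOXM1 rose 1.31-fold, the histone-binding subunit gene RBBP4, a GATAACT carrier, 1.32-fold and LIN52 1.49-fold. LIN9, LIN37 and LIN54, further MuvB subunits, were not called, at 0.034 to 0.11 on the log2 scale. In the Polycomb complex that holds E2F6, 5 of 12 genes were lower and 1 was higher, with a median of -0.11. HDAC1, a histone deacetylase, fell from 234 ± 6.98 to 173 ± 4.79 CPM, the ubiquitin ligase cofactor gene RYBP 1.22-fold and PCGF6, which defines this complex, 1.26-fold. MGA and RNF2 fell 1.15-fold and 1.17-fold, and L3MBTL2 rose 1.30-fold. Of 5 germ-line genes known to be silenced with E2F6, 3 did not pass the count filter, STAG3 was not called (0.015 on the log2 scale), and TUBA3D fell from 1.39 to 0.731 CPM (edgeR adjusted p = 0.022). The TUBA3D call went with siCTL 1, siDEPDC1 2 or siDEPDC1 4 left out (edgeR adjusted p = 0.0722, 0.0619 and 0.0674) and with DESeq2 (adjusted p = 0.109). TUBA3D is uncertain also because its sequence is nearly the same as that of other tubulin genes, between which reads may be split. Among subunits of ligases that degrade E2F proteins, SKP2 fell 1.18-fold and its cofactor gene CKS1B rose 1.16-fold, while CCNF and FZR1 were not called.

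The E2F target genes of G1/S and DNA replication were lower more often than higher. Of 48 tested, 16 were lower and 7 higher, with a median log2 fold change of -0.12. These are shares of 33.3% lower and 14.6% higher, beside 17.9% and 16.5% of all tested genes. Within the members' range of mean CPM, 23.2% of tested genes were lower and 19.4% higher. In this list, 24 of the 42 with a promoter in the table held an E2F word, against 6.44% of tested genes with a promoter. Of those 24, 5 were higher and 6 lower, with a median of -0.090. The largest fall was in GINS1, a subunit of the replicative helicase, from 52.5 ± 2.56 to 18.2 ± 1.41 CPM. RRM1, the large subunit of ribonucleotide reductase, fell 1.52-fold, and GMNN, which encodes the licensing inhibitor geminin, fell 1.599-fold. TK1, the thymidine kinase gene, rose from 171 ± 13.7 to 213 ± 14.9 CPM, RRM2, the small subunit of the reductase, 1.15-fold and EZH2, a histone methyltransferase gene, 1.16-fold. The EZH2 call was lost without siCTL replicate 1 (edgeR adjusted p = 0.0515).

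The 7 higher calls of G1/S genes depended on single libraries: 3 were left when siCTL 1 was omitted and 4 when siCTL 2, siDEPDC1 2 or siDEPDC1 3 was. The lower calls ranged from 12 to 17 over the same omissions. GINS1, RRM1, ATAD2 and BARD1 carried GATAACT and were all lower, and the median of the 43 searched genes of the list without the word was -0.12. Among the genes of origin licensing in the list, MCM5 and ORC6 were lower, at -0.19 and -0.40 on the log2 scale, as was the replication initiation gene MCM10, at -0.36. MCM2, MCM3, MCM4, MCM6, MCM7, ORC1, CDC6 and CDT1 were not called, at -0.17 to -0.0022. Over all 725 tested genes with an E2F word in the promoter, 17.0% were higher and 19.2% lower, close to 17.7% and 20.1% of the 11253 tested genes with a promoter in the table.

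Genes of G2/M, which B-MYB, FOXM1 and the pocket protein complex regulate, were mostly higher. Of 23 tested, 17 were higher and 1 lower, with a median log2 fold change of 0.25, and none carried GATAACT. These are shares of 73.9% higher and 4.35% lower, beside 16.5% and 17.9% of all tested genes. Within the members' range of mean CPM, 19.4% of tested genes were higher and 23.2% lower. PTTG1, the securin gene, rose 1.53-fold, the kinesin gene KIF20A 1.48-fold and AURKA, a spindle kinase gene, 1.31-fold. CDK1, which encodes the kinase of mitotic entry and has an E2F word in its promoter, was the 1 lower gene (log2 fold change -0.18, edgeR adjusted p = 0.0249). It lost that call with library size alone and when siCTL 2, siCTL 3 or siDEPDC1 4 was left out (edgeR adjusted p = 0.0677, 0.0964, 0.0838 and 0.124). The lists were set beside each other by their counts, and the difference between them was not tested. Genes of S phase, G2 and mitosis vary with the share of cells in each phase, which was not measured here. In bulk RNA, fewer cells in a phase and less transcript per cell cannot be told apart. This limit covers the members too, as several E2F genes are themselves E2F targets.

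Apoptosis genes known as E2F1 targets moved both ways, and 2 of the 7 tested were lower. That share of 28.6% is near 23.2% of genes within the members' range of mean CPM, beside 17.9% of all tested genes. APAF1, the apoptosome scaffold gene, fell from 53.0 ± 1.72 to 22.2 ± 1.61 CPM (edgeR adjusted p = 1.18e-15), and PMAIP1, a BH3-only gene, fell 1.30-fold. BBC3, which encodes the BH3-only protein PUMA, rose 1.46-fold from 5.77 ± 0.542 CPM. TP73, a direct E2F1 target, was at 9.97 CPM in siCTL and 10.4 CPM in siDEPDC1 and was not called.

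**Figure D5:**
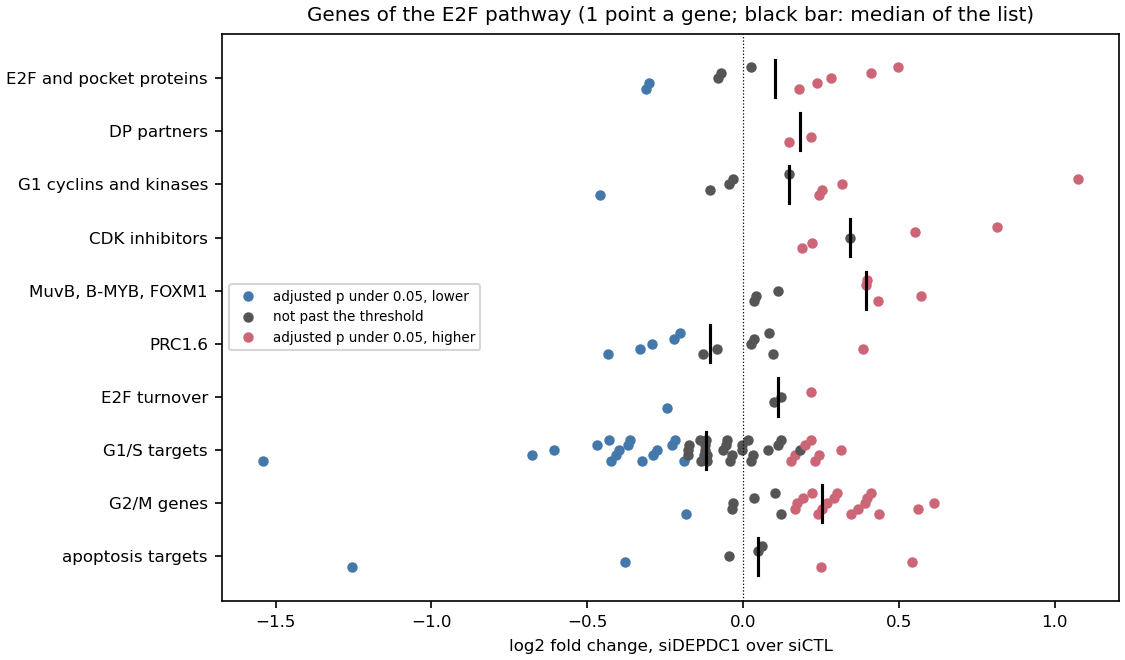
Log2 fold change (siDEPDC1 over siCTL) of each tested gene in the E2F and pocket protein group and 9 related lists, coloured by call, with a black bar at the median of each list. The medians are -0.12 for G1/S targets and 0.25 for G2/M genes; vertical offsets within a list only separate the points.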

How the data were processed

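The authors deposited raw counts per Ensembl gene for 7 libraries (3 siCTL, 4 siDEPDC1), whole numbers that sum to a different total in each library. GRCh38 as the build and FastQC, STAR 2.7.9a and DESeq2 as tools are named per the submitters' processing notes. The sources used here do not give the counter, annotation release or strand setting. Symbols matched 42022 of 60675 identifiers.

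Counts were filtered with filterByExpr and tested in R 4.3.3 by edgeR 4.0.16 (TMM, glmQLFit with robust estimation, glmQLFTest, two-sided, group as the only term), with Benjamini-Hochberg adjustment over 16583 genes and a threshold of 0.05. SE is the absolute log2 fold change over the square root of F. The fit was tested on simulated data. Alternatives were other scalings and count filters, DESeq2 1.42.0, limma-voom (limma 3.58.1), a replicate block, thinning and leaving out each library. Pairs of libraries within a group differed by more than sampling noise (chi-square per gene 1.68 to 4.69, about 1 for pure counting error), so none was counted as a duplicate.

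The members, the lists and the word GATAACT were chosen with earlier results of these data known. Named genes are all members, DEPDC1, the tested DP partners, up to 3 called genes per direction with the smallest adjusted p in each list, and the 2 genes of at least 5 CPM nearest to each called member. Genes named beyond this complete small counts or were chosen after their values were seen. Lists are described by counts and medians, with no set test. A result that would complete a list is in places not reported here. Lengths and 3′ UTRs (at least 50 bases) came from GENCODE release 29, which may not be the release used for counting.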

Additional observations from a re-analysis of the deposited data

Results flagged for a closer look

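In 15 sets of 4 siDEPDC1 values (the 10 genes, the 4 ratios and the library totals), the lowest or highest library was compared with the rest by the size of its gap as a share of the whole range. About 1 in 20 such sets is expected to stand out by chance. E2F1 in siDEPDC1 replicate 1, at 93.3 CPM, stood apart from the other 3 libraries at 111 to 113 CPM, with a gap of 0.906 of the range. The log2 ratio of E2F1 to E2F4 in the same library, 0.18, stood apart from 0.29 to 0.31 in the others, with a gap of 0.834. Both values contain the same E2F1 count and are not independent. Without this library E2F1 had a log2 fold change of 0.47 (edgeR adjusted p = 1.42e-07), and the difference in the E2F1 to E2F4 ratio was 0.41 in place of 0.38.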

How the results depend on the processing

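Over 15 distinct alternatives (the 6 libraries used with the block are also those left without siDEPDC1 replicate 4) no member changed direction. E2F1, E2F2, E2F3, E2F7 and E2F8 stayed called in all of them, E2F5 in 14, RBL2 in 7, and E2F4, E2F6 and RBL1 in none. Of 911 values recomputed for 61 named genes, 37 lost a call, 6 gained one, all in ZBTB1 and PPHLN1, and none reversed. Scaling by library size alone moved all genes by a median of 0.030 on the log2 scale, and the other alternatives by less. The count of G1/S genes called higher was 10 with library size alone. It was 4 with no count filter, with DESeq2, with the replicate block and after thinning, and ran from 3 to 9 with a library left out. The 1 lower call of G2/M genes became 0 with library size alone, with the replicate block and in the same 6 libraries without it, and was 0 to 1 with a library left out. The 17 higher calls of G2/M genes ran from 13 to 18 with a library left out. With the length of the longest transcript, siCTL ranks became 3 for E2F1, 1 for E2F7, 2 for E2F4, 4 for E2F3 and 5 for RBL1.

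Same-numbered libraries did not deviate together (correlations of -0.085, -0.0059 and -0.058). With only 3 pairs, each group centred on its own mean, this cannot show whether samples were handled in pairs. With the replicate block on 3 pairs, 1 member was lower in place of 2, as E2F5 had a log2 fold change of -0.23 (edgeR adjusted p = 0.0732). The same 6 libraries without the block gave -0.23 (0.0392). Of the other named genes called with all 7 libraries, TFDP1 and SKP2 were called in these 6 libraries only without the block. Their edgeR adjusted p was 0.0917 and 0.0714 with it, and 0.0475 and 0.0414 without. PPHLN1, not called with all 7 libraries, was also called only without the block (edgeR adjusted p = 0.0678 with it, 0.0358 without). Depth limits calls of small changes most for E2F6, the member with the fewest counts.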
